A study of Mus musculus with 7 samples.

Results

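The genes described here are Uprt, Tbc1d19, Dppa4, Zfp827, Pclaf and Cep126, 6 of the 22180 genes that were measured by a probeset with exactly 1 gene symbol. They were chosen by their measured values, 5 because 1 array lay far from the others and Cep126 because it passed the test of deletion against control once 1 array was left out. Each was measured by 1 probeset. Total RNA came from G1E, a mouse erythroid cell line that was derived from embryonic stem cells with a disrupted Gata1 gene and grows as immature erythroid precursors. The 3 control arrays carried wild-type Lockd and the 4 deletion arrays carried a CRISPR/Cas9 deletion of Lockd, a long non-coding RNA gene beside Cdkn1b. The lack of functional GATA1 for which the line is known is shared by both groups. The series calls the samples clones, but the labels do not say which arrays share a clone or a culture, and they do not give the guides. Clone, culture and RNA preparation cannot be told apart as the source of a value seen on 1 array.

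The 6 genes belong to unrelated processes. Uprt is placed in the salvage of pyrimidine bases, by which cells rebuild nucleotides from uracil and uridine in place of making them anew, and Pclaf binds PCNA, the sliding clamp that holds DNA polymerases at the replication fork. Tbc1d19 belongs to the TBC proteins, which switch off the Rab GTPases that steer membrane traffic, and Dppa4 binds DNA in pluripotent and early germ cells together with Dppa2. Zfp827 can bring the NuRD chromatin remodelling complex to telomeres, a role that was not measured in these cells. Cep126 serves at the centrosome, which anchors microtubules and gives rise to the cilium.

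For each gene, the distance of the highest or the lowest array to the nearest of the other 6 arrays was taken on the log2 scale. It was 1 (2-fold) or more for 34 of 22180 genes, which is 0.153%, and 5 of the 6 genes were among them. Uprt had the largest distance of all genes, at 5.86, and Tbc1d19, Dppa4, Zfp827 and Pclaf ranked 3, 5, 6 and 7 with distances of 2.58, 2.46, 2.10 and 2.08. These distances chose the genes and are given as a description. The next gene below Pclaf, Car13, stood at 1.91, and Fam111a at 4.10 and Slfn3 at 2.46 lay between the genes described. Cep126 was not set apart on a single array over all 7 arrays, with a distance of 0.20 and rank 4599, and its values formed a set of 4 and a set of 3 instead.

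**Figure D1:**
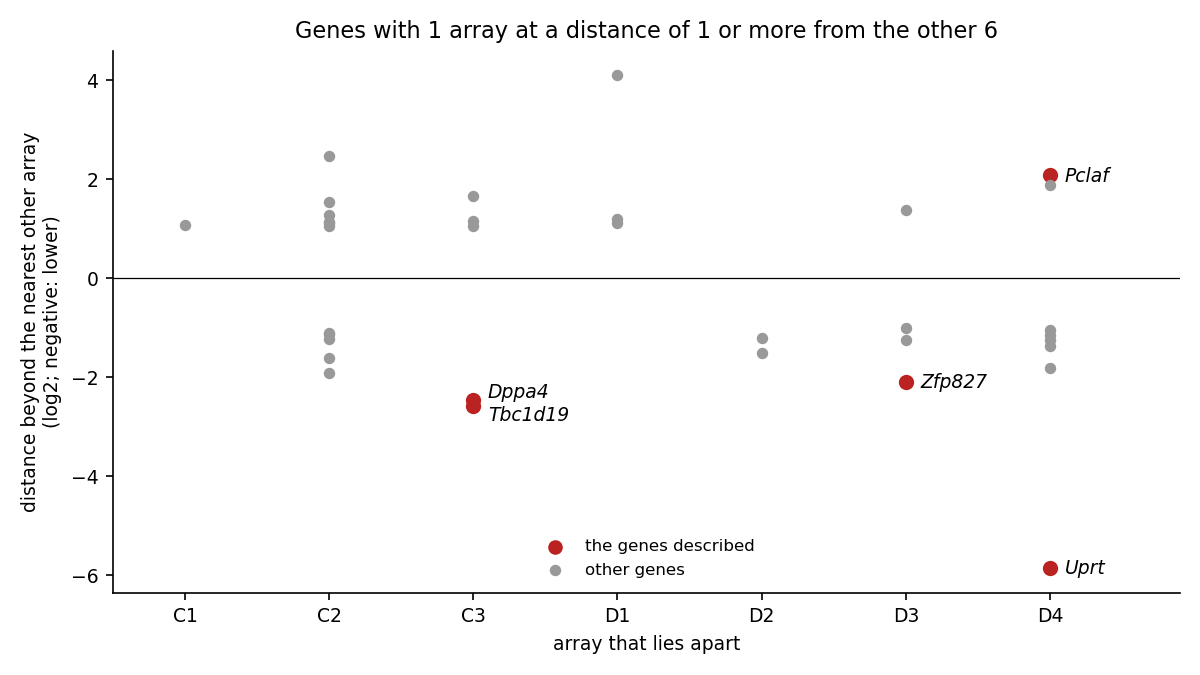
Distance (log2) of the array that lies apart from the nearest of the other 6, for the 34 genes with a distance of 1 or more, by that array (C1 to C3 control, D1 to D4 deletion replicates); points below 0 are lower on that array. Uprt on deletion replicate 4 lies lowest of all at 5.86 below the nearest array, and Tbc1d19 and Dppa4 lie together on control replicate 3.

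The arrays held different numbers of such genes. Control replicate 2 had 11 of the 34, deletion replicate 4 had 8, control replicate 3 had 5, deletion replicate 3 had 4, deletion replicate 1 had 3, deletion replicate 2 had 2 and control replicate 1 had 1. Control replicate 2 also had the widest spread around the per-probeset median, with an interquartile range of 0.194 against 0.122 to 0.142 on the other arrays, and none of the 6 genes was set apart on it. Arrays correlated at 0.993 to 0.996 over the tested probesets. Lockd itself averaged 3.02 lower in the deletion group and was lower on all 4 deletion arrays, at 4.17 to 5.15 against 7.80 to 8.04. Erythroid genes such as Klf1 at 10.44 to 10.65, Tfrc at 11.70 to 11.95 and Epor at 9.40 to 9.72 spanned narrow ranges over the 7 arrays, as did the progenitor gene Gata2 at 12.37 to 12.53. Other genes of these lists varied more, with Slc4a1, the band 3 gene, from 7.40 on deletion replicate 2 to 8.84 on deletion replicate 3 and Erg, a progenitor gene, from 6.08 on deletion replicate 3 to 8.41 on control replicate 1. Median shifts of the erythroid marker list on single arrays, each against the other 6, lay between -0.11 and 0.13 over 13 measured genes, those of the progenitor list between -0.062 and 0.095 over 9, and those of the cell division list between -0.047 and 0.035 over 13.

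**Figure D2:**
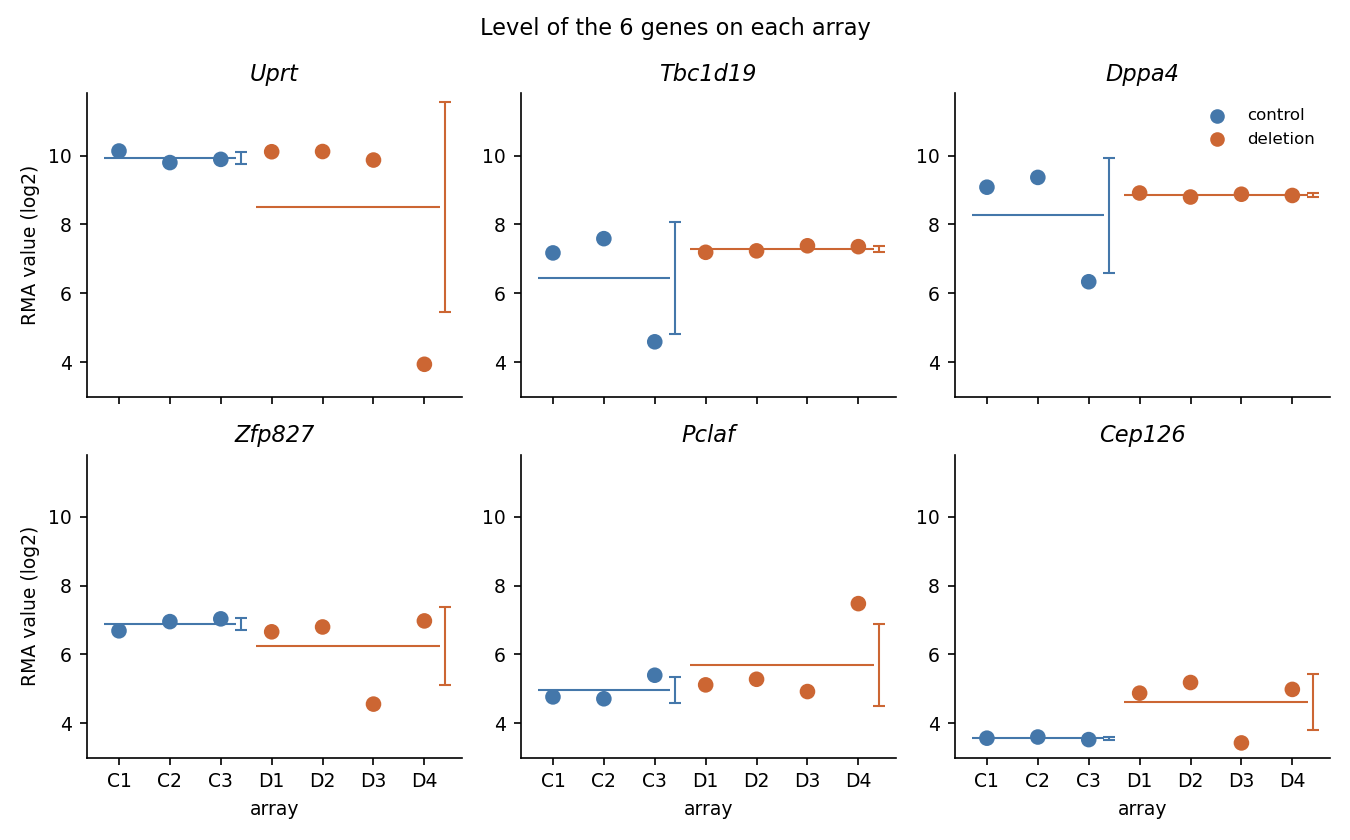
RMA value (log2) of each of the 6 genes on the 3 control (C1 to C3) and 4 deletion (D1 to D4) arrays; lines are group means and bars are the SD. Uprt reads 3.94 on deletion replicate 4 and at least 9.79 elsewhere, Tbc1d19 and Dppa4 are both low on control replicate 3, and Cep126 is high on 3 of the 4 deletion arrays.

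Uprt, an X-linked gene named for its likeness to the microbial enzyme that salvages uracil into UMP, was far lower on 1 deletion array than on all the others. It read 10.13, 9.79 and 9.89 on control replicates 1 to 3 and 10.11, 10.12, 9.87 and 3.94 on deletion replicates 1 to 4. The 6 other arrays spanned 0.34, so control and deletion arrays overlapped, and deletion replicate 4 stood at -6.06 from their median. On the linear scale that array held 1.50% of their median level, or 66.7-fold less. Whether 3.94 lies above background was not measured, since RMA gives no detection call. Control arrays averaged 9.94 ± 0.17 (SD, n = 3). Deletion arrays averaged 8.51 ± 3.05 (SD, n = 4), and 10.03 ± 0.14 (SD, n = 3) without replicate 4. RefSeq (GRCm38.p6) places the 300 bases around the start of Uprt on the plus strand at chrX:104482553-104482852, and they are shown because this gene had the largest distance. Capitals mark the CCAAT box, searched as CCAAT on both strands, and the GC box, searched as GGGCGG on both strands.
Uprt: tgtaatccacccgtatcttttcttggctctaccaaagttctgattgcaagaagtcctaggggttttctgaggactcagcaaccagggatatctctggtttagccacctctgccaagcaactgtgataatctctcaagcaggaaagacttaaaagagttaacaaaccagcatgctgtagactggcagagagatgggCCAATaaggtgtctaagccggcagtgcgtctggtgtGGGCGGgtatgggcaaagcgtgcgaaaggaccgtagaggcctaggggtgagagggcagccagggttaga
The window holds 1 match to CCAAT and 1 to GGGCGG, letters that 37.4% and 35.7% of the 32851 windows in the table hold as well. The probes of the array are not placed on the gene in the sources used here.

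No fall like that of Uprt was seen in the genes around it on the X chromosome, but most of them read low on all arrays. Of the 5 nearest measured genes on each side, none lay 0.5 or more from the other arrays on deletion replicate 4. They ran from -0.16 for 5530601H04Rik to 0.23 for 1700121L16Rik, with a median of -0.037. Rlim, a ubiquitin ligase gene known for its part in X inactivation, averaged 10.47 over the 7 arrays and lay 0.0054 above the others there, and Pbdc1, at an average of 10.43, stood at -0.0425. The next gene after Uprt, Zdhhc15, a palmitoyltransferase gene, averaged 3.61 and stood at -0.031. Apart from Rlim and Pbdc1, the neighbours averaged 5.57 or less, so most had little room to fall. The pathway that Uprt is named for lay near the other arrays as well. Over the 27 measured genes of pyrimidine salvage and synthesis other than Uprt, the median shift on deletion replicate 4 was -0.011, with 13 genes above 0 and a range from -0.15 for Cmpk2 to 0.23 for Upp1, the uridine phosphorylase gene. Uck2, a uridine kinase gene, lay 0.155 above and Umps, which makes UMP de novo, stood at -0.034. Over all genes the median shift there was 0.0016, and 1.1% lay 0.5 or more away.

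Pclaf, which encodes a small PCNA-binding factor of DNA replication and repair, was high on the same array. It read 4.77, 4.71 and 5.40 on control replicates 1 to 3 and 5.12, 5.28, 4.92 and 7.48 on deletion replicates 1 to 4. The other 6 arrays overlapped between the groups, and deletion replicate 4 lay 2.46 above their median, or 5.49-fold. Whether the 4.71 to 5.40 of those 6 lies above background was not measured, so the fold is that of the array values. Control arrays averaged 4.96 ± 0.38 (SD, n = 3). Deletion arrays averaged 5.70 ± 1.19 (SD, n = 4), and 5.11 ± 0.18 (SD, n = 3) without that array. The replication genes that work with Pclaf lay near the other arrays there. Of 43 listed genes of the PCNA clamp and the replication fork, 40 were measured, and their median shift on deletion replicate 4 was -0.0088, from -0.18 for the flap endonuclease gene Fen1 to 0.12 for Gins1. Pcna, the clamp itself, read 12.27 on that array and 12.25 to 12.35 on the others. The cell division list shifted by -0.014 there. The 10 nearest genes of Pclaf on chromosome 9 lay between -0.17 for Csnk1g1 and 0.16 for Snx22. The profile most like that of Pclaf, by the root mean square difference over 7 median-centred values, was that of Eya1, at 0.314. Eya1, a developmental phosphatase and transcriptional coactivator gene, read 7.91 on deletion replicate 4 and 5.54 to 6.03 on the other arrays. Magi3 at 0.449 and Rnpep at 0.542 came next. For Uprt the nearest profiles were those of Rgs19, Myo5a and Pik3cd, at 1.52, 1.63 and 1.68, against 2.25 for a flat profile. Rgs19, which restrains G protein signalling, read 7.08 on deletion replicate 4 and 8.90 to 9.35 elsewhere, a fall far smaller than that of Uprt.

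Mast cell and basophil markers were the marker list that lay farthest from 0 on deletion replicate 4, with a median of -0.32 over 12 measured genes. The sum of their log2 values, which is not an amount of RNA, ranged from 67.0 to 74.7 on control and 65.3 to 70.2 on deletion arrays. Cpa3, the mast cell carboxypeptidase gene, read 9.88 on deletion replicate 4 but 9.53 on control replicate 2 and 10.00 on deletion replicate 1, and it was lowest on control replicate 2. Of the 12 genes, 5 were lowest of all arrays on deletion replicate 4, while Tpsb2 was highest there, at 4.46. Tph1, a serotonin synthesis gene, was lowest there at 7.25. It was low on the other deletion arrays too, at 7.78 to 8.37 against 9.35 to 10.39 on control arrays. Hdc, the histamine synthesis gene, read 4.74 there against 4.79 to 5.48 elsewhere. The others, Tpsab1, Cma1 and Fcer1a, had low values on that array, at 4.72, 3.325 and 3.015. The part of these cells in the values of Uprt and Pclaf was not tested. In RNA of a whole culture, fewer cells with a transcript and less of it in each cell cannot be told apart.

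Tbc1d19 and Dppa4 were both low on control replicate 3. Tbc1d19, a member of the TBC family of proteins that switch off Rab GTPases of membrane traffic, read 7.17, 7.59 and 4.59 on control replicates 1 to 3 and 7.19, 7.23, 7.38 and 7.35 on deletion replicates 1 to 4. Deletion arrays lay within the range of control replicates 1 and 2. Control replicate 3 stood at -2.70 from the median of the other arrays, at 15.4% of their level. Whether 4.59 lies above background was not measured, so the share is that of the array values. Dppa4, a DNA-binding protein gene of pluripotent and early germ cells that acts with Dppa2, read 9.08, 9.36 and 6.34 on control replicates 1 to 3. It read 8.91, 8.79, 8.88 and 8.84 on deletion replicates 1 to 4, below control replicates 1 and 2 and above control replicate 3. That array stood at -2.56 from the median of the others, at 17.0% of their level. Control arrays averaged 6.45 ± 1.62 for Tbc1d19 and 8.26 ± 1.67 for Dppa4 (SD, n = 3), against 7.29 ± 0.092 and 8.86 ± 0.05 over deletion arrays (SD, n = 4).

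Out of all genes, the profile nearest to that of Tbc1d19 was that of Dppa4, with a root mean square difference of 0.15 over the 7 arrays. The next nearest to Tbc1d19 were Zfp273 at 0.581 and the small RNA gene AF357399 at 0.636. For Dppa4 they were Zfp273 at 0.586 and the tubulin gene Tubb6 at 0.629. A flat profile would lie at 1.01 from Tbc1d19 and 0.981 from Dppa4. Both genes were chosen for a low value on control replicate 3, which weighs most in such a difference. Their nearness thus follows largely from the choice, and nothing is read from it. Tbc1d19 lies on chromosome 5 and Dppa4 on chromosome 16, so the pair does not share a locus.

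Neighbours and relatives of both genes lay near the other arrays on control replicate 3. The 10 nearest measured genes of Tbc1d19 ran from -0.095 for 4930459L07Rik to 0.36 for Cckar there. Rbpj, the transcription factor gene of Notch signalling, lay 0.063 above, and the calcium sensor gene Stim2 read -0.00068. Around Dppa4 the range was -0.26 for Morc1, a germline gene, to 0.40 for Plcxd2. Dppa2, the gene next to Dppa4 and its protein's partner, read 4.48 on that array and 4.38 to 4.58 on the others. Of 38 other TBC family genes, all 38 measured, the median shift was 0.022, from -0.20 for Tbc1d1 to 0.35 for Tbc1d10a. Of 32 other pluripotency and germline genes, 30 were measured, with a median shift of 0.021, from -0.41 for Zscan4c to 0.25 for Tfcp2l1. Genes that read low on all arrays have little room to fall. Beside Tbc1d19, 4930459L07Rik, Gm10440, 4932441J04Rik, Sel1l3, Cckar and Slc34a2 averaged 3.05 to 4.95. The other neighbours of Tbc1d19, Smim20, Stim2, Pcdh7 and Rbpj, averaged 7.64 to 10.03. Most neighbours of Dppa4 averaged low, such as Morc1 at 4.19, with Abhd10 highest at 6.65. Most pluripotency and germline genes read low too, such as Nanog at 4.32 to 4.68. Whether such values lie above background was not measured, so their small shifts say little. Control replicate 3 gave median shifts between -0.032 and 0.10 over the marker lists, the largest for lymphoid genes.

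Zfp827, a zinc finger gene whose protein can bring the NuRD remodelling complex to telomeres, was low on deletion replicate 3. It read 6.69, 6.95 and 7.03 on control replicates 1 to 3 and 6.66, 6.80, 4.56 and 6.97 on deletion replicates 1 to 4. Apart from that array the groups overlapped. It stood at -2.32 from the median of the others, at 20.1% of their level, with the background of 4.56 not measured either. Control arrays averaged 6.89 ± 0.18 (SD, n = 3). Deletion arrays averaged 6.25 ± 1.13 (SD, n = 4), and 6.81 ± 0.16 (SD, n = 3) without it. Its 10 nearest genes on chromosome 8 ran from -0.18 for Smad1, a BMP signal transducer, to 0.31 for Mmaa on that array. The adjacent genes Lsm6 and 1700011L22Rik stood at 0.0355 and -0.17.

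Among 25 NuRD, telomere and orphan receptor genes, all measured, the median shift on deletion replicate 3 was 0.023, and 18 lay above 0. A single one lay 0.5 or more away, the remodeller gene Chd3 at -1.10, where 1.3% of all genes did. Chd3 read 7.77 on deletion replicate 3 and 8.65 to 9.13 on 5 other arrays, but control replicate 2 was low for it as well, which it was not for Zfp827. The nearest profiles were those of Ap3m2 at 0.425, Agpat2, a lipid synthesis gene, at 0.44 and Ccng2, the cyclin G2 gene, at 0.459. Agpat2 read 6.39 on that array and 7.64 to 8.30 elsewhere. Lockd had its own lowest value on it, 4.17 against 5.09 to 5.15 on the other deletion arrays. On deletion replicate 3 the mast cell and basophil list shifted by -0.22 and the erythroid list by 0.13, and their part in the value of Zfp827 was not tested.

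**Figure D3:**
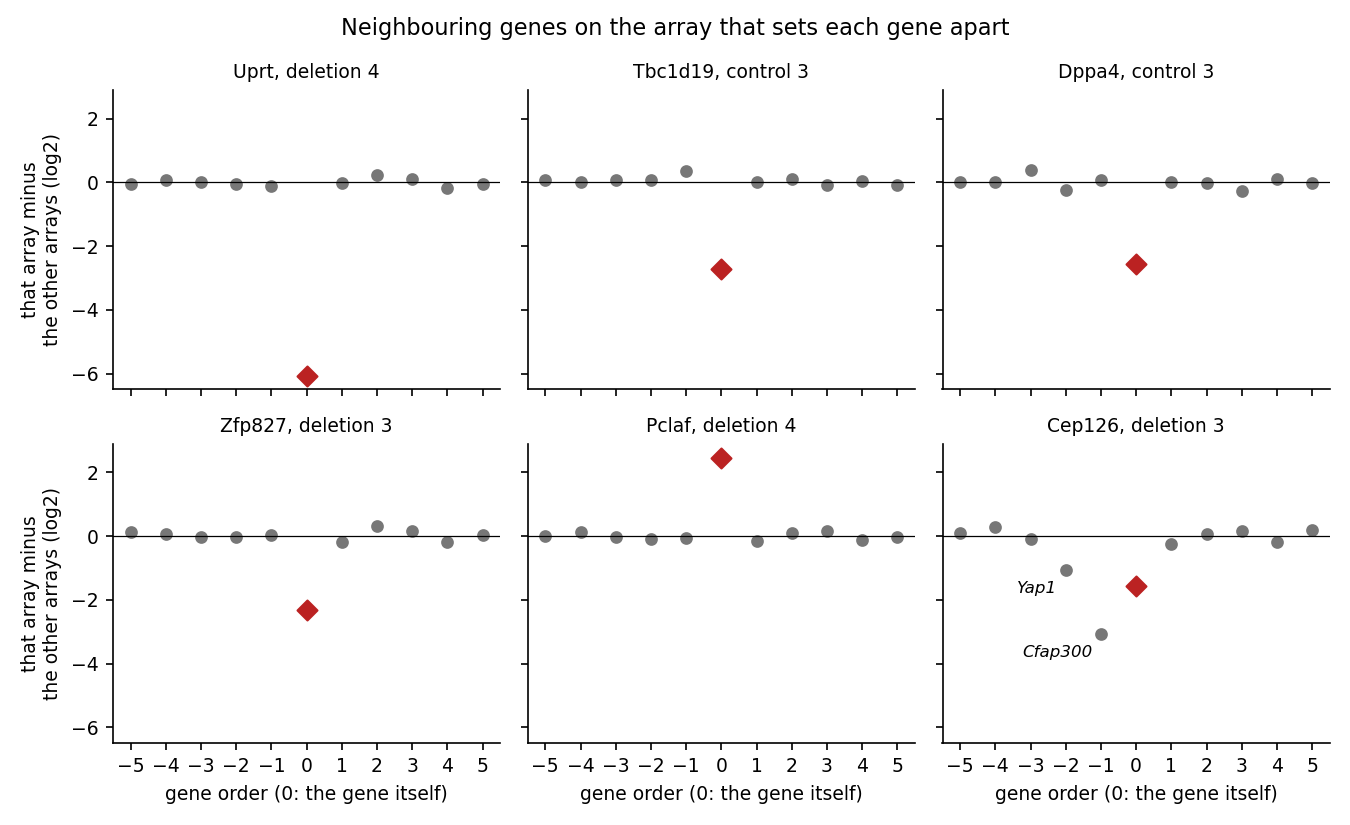
Each gene (red diamond, position 0) and its 5 nearest measured neighbours on each side (grey), as the value on the array that sets it apart minus the median of the other 6 arrays (for Cep126, of the other 3 deletion arrays), in log2. The 50 neighbours of the first 5 genes lie between -0.26 and 0.40, while Cfap300 and Yap1 beside Cep126 lie at -3.07 and -1.06.

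Cep126, which encodes a centrosomal protein of microtubule organisation and cilium formation, was high on 3 of the 4 deletion arrays. It read 3.57, 3.60 and 3.53 on control replicates 1 to 3 and 4.88, 5.19, 3.43 and 4.99 on deletion replicates 1 to 4. Deletion replicate 3 was the lowest of all arrays, and the other deletion arrays lay at least 1.27 (2.42-fold) above the 3 control arrays and it. Whether 3.43 to 3.60 lies above background was not measured, so the fold is that of the array values. Control arrays averaged 3.57 ± 0.038 (SD, n = 3). Deletion arrays averaged 4.62 ± 0.80 (SD, n = 4), and 5.02 ± 0.16 (SD, n = 3) over deletion replicates 1, 2 and 4. Cep126 was the only one of the 22180 genes in which 3 deletion arrays lay 1 or more above, or below, all 4 other arrays. It was chosen on these same values, so the count describes it and supports nothing.

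The genes next to Cep126 on chromosome 9 also differed between arrays, but along another line. Cfap300, the adjacent gene, whose protein serves in the assembly of ciliary dynein arms, read 3.80, 4.40 and 6.80 on control replicates 1 to 3 and 6.72, 6.63, 3.64 and 6.71 on deletion replicates 1 to 4. It was low on control replicates 1 and 2 and deletion replicate 3, and at least 2.24 (4.72-fold) higher on the other 4 arrays, with the same limit for its low values. Yap1, the Hippo pathway coactivator gene that follows Cfap300, split the same 7 arrays in the same way. It read 7.47, 7.50 and 8.14 on control replicates 1 to 3 and 8.57, 8.30, 7.24 and 8.23 on deletion replicates 1 to 4, with 0.637 (1.56-fold) between the sets. Control replicate 3 thus read with deletion replicates 1, 2 and 4 for Cfap300 and Yap1 and with the other control arrays for Cep126. Another probeset of Yap1 read 3.94 to 4.15 and showed no such split. These values were looked at on every array after the fixed list of neighbours had shown Cfap300 and Yap1 to be low on deletion replicate 3.

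**Figure D4:**
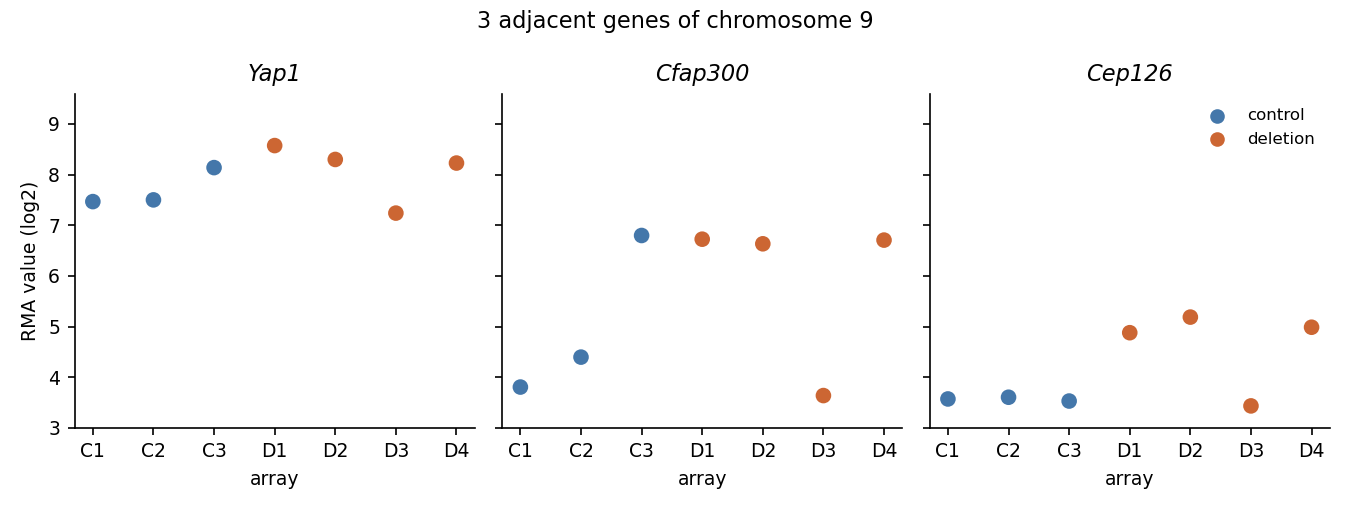
RMA value (log2) of the adjacent genes Yap1, Cfap300 and Cep126 on the 3 control (C1 to C3) and 4 deletion (D1 to D4) arrays. Yap1 and Cfap300 are low on C1, C2 and D3, while Cep126 is low on those and on C3, at 3.53.

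The genes beyond them lay nearer to the other arrays. On deletion replicate 3 the inhibitor of apoptosis genes Birc3 and Birc2 stood at -0.079 and 0.29 from the other deletion arrays. They averaged 8.36 and 8.29 over the 7 arrays. On the other side 1700128F08Rik lay at -0.26 and Trpc6, a calcium channel gene, at 0.16. On that side 1700128F08Rik, Trpc6, Pgr and Arhgap42 averaged only 3.92 to 4.35, so they had little room to fall and their small shifts say little. RefSeq places Cep126, Cfap300 and Yap1 on the minus strand. Their start regions are shown because these adjacent genes differ between arrays, with the same motifs in capitals. The windows lie at chr9:8134397-8134696 for Cep126, the first of 2 listed for that gene, at chr9:8042826-8043125 for Cfap300 and at chr9:8004547-8004846 for Yap1, all in GRCm38.p6.
Cep126: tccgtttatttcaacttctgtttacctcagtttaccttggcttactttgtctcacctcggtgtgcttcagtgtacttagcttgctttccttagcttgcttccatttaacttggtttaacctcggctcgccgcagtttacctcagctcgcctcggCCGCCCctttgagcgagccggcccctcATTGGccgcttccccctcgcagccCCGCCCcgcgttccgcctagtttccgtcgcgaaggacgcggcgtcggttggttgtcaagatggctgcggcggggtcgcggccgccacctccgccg
Cfap300: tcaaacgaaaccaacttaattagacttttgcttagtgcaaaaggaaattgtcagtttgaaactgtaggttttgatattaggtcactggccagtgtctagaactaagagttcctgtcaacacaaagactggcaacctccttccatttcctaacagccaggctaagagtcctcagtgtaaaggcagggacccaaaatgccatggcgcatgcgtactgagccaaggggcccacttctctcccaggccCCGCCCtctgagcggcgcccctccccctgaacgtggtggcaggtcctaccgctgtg
Yap1: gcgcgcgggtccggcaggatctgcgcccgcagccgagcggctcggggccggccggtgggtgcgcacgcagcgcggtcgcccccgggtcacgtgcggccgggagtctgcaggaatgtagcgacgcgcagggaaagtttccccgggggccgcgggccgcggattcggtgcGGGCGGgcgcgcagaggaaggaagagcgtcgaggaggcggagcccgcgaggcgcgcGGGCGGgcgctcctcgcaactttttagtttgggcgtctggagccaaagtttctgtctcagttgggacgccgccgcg
The Cep126 window holds 1 CCAAT and 2 GGGCGG matches and 60.0% G and C, the Cfap300 window 0 and 1 with 51.7%, and the Yap1 window 0 and 2 with 74.0%. The 3 windows do not overlap.

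The centrosome and cilium genes as a list did not follow Cep126. Of 39 other listed genes 38 were measured, and on deletion replicate 3 their median shift from the other deletion arrays was 0.048, with 25 above 0 and a range from -0.39 for Cep170b to 0.31 for Cep162. The profile nearest to that of Cep126 was that of Cxxc5, a CXXC zinc finger gene, at 0.415, with 6.75 to 7.02 on control arrays, 6.88 on deletion replicate 3 and 7.54 to 8.10 on the other deletion arrays. Tspan3 at 0.528 and Cyp2d11 at 0.592 followed, against 0.931 for a flat profile.

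Between the groups, Uprt differed by -1.43 (SE 1.39, deletion minus control), Tbc1d19 by 0.84 (SE 0.61), Dppa4 by 0.60 (SE 0.62), Zfp827 by -0.64 (SE 0.52), Pclaf by 0.74 (SE 0.56) and Cep126 by 1.05 (SE 0.37). After adjustment of the limma p-values over 23521 probesets (Benjamini-Hochberg), 0 of the 6 genes passed, where 2 probesets (Lockd and Cdkn1b), or 0.0085%, did. At an unadjusted p under 0.05 there was 1 of the 6, Cep126, where 4.64% of probesets were. Since these contrasts took part in the choice of the genes, nothing is read from the counts.

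Without the array set apart, the differences of 5 genes came close to 0 or turned. Uprt differed by 0.093 (SE 0.12) without deletion replicate 4, and Pclaf by 0.15 (SE 0.19). Tbc1d19 differed by -0.090 (SE 0.125) without control replicate 3, and Dppa4 by -0.37 (SE 0.096). Zfp827 differed by -0.081 (SE 0.12) without deletion replicate 3. Control arrays weighed on 2 of them in the other direction, with Tbc1d19 at 1.41 without control replicate 2 and Dppa4 at 1.01 and 1.15 without control replicates 1 and 2. Cep126 rose to 1.45 (SE 0.095) without deletion replicate 3 and had an adjusted p of 0.00775 in limma, the value that chose it. In that fit 2 of 23521 probesets passed, or 0.0085%, Lockd and Cep126, and the next, Cdkn1b, had an adjusted p of 0.118. Cep126 did not pass with any other single array left out, at 0.86 to 1.07.

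**Figure D5:**
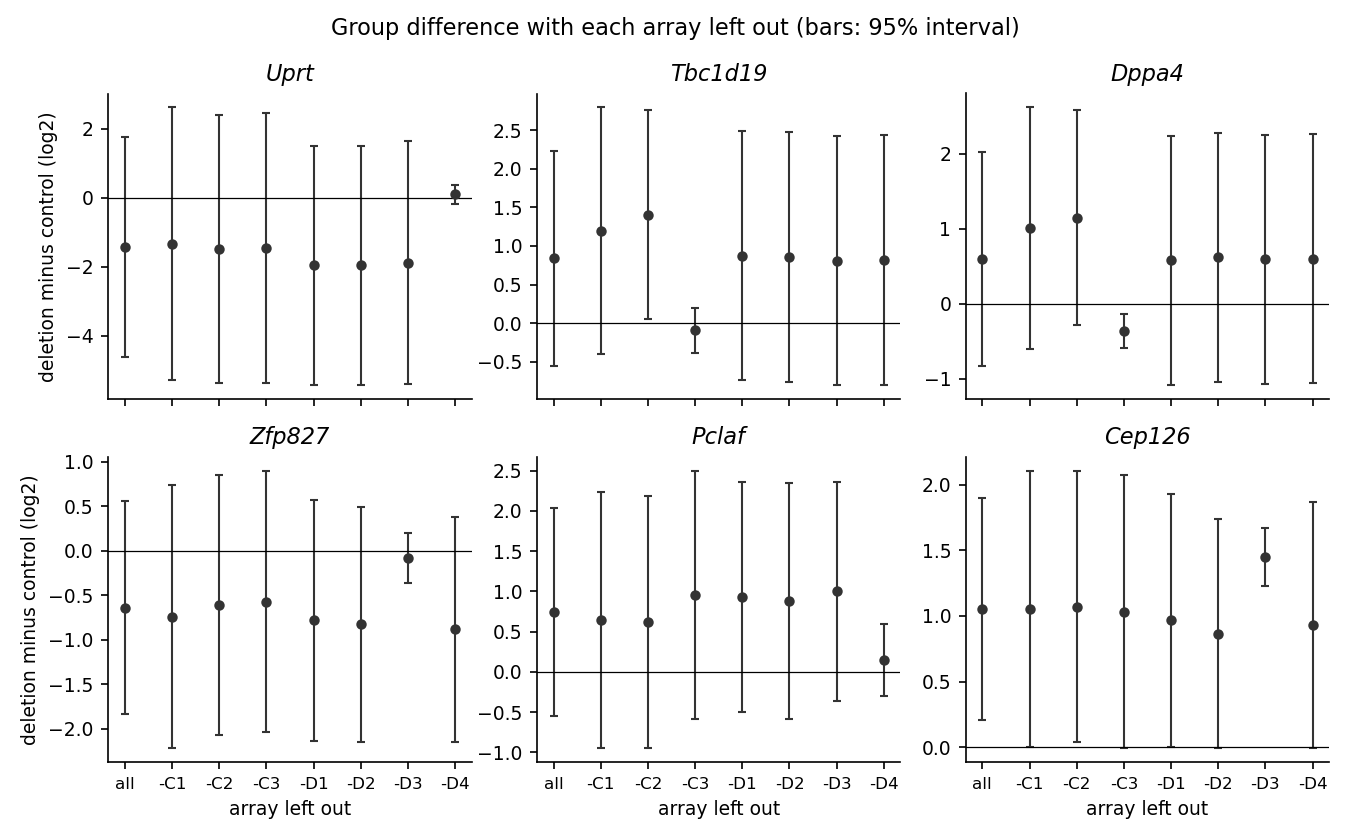
Deletion minus control (log2) of each gene in limma with all 7 arrays and with each array left out (C1 to C3 control, D1 to D4 deletion); bars are 95% intervals and vertical scales differ. The interval narrows around 0.093 for Uprt without D4 and around 1.45 for Cep126 without D3.

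No gene of the pathway lists passed the test between the groups. Of 198 distinct measured genes in the 6 lists, without the genes the lists were made for, 0 passed in limma and 4 had an unadjusted p under 0.05, where 0.0085% and 4.64% of all probesets did. These 4 were Tbc1d24 at -0.22 (SE 0.086), the NuRD-associated gene Cdk2ap1 at 0.20 (SE 0.072), the centrosomal gene Cep170 at -0.20 (SE 0.065) and Cep112 at 0.18 (SE 0.0735), each with an adjusted p of 0.999. Median differences were 0.0064 for pyrimidine genes, -0.010 for TBC genes, 0.061 for pluripotency and germline genes, 0.0019 for NuRD and telomere genes, 0.0175 for replication genes and 0.00024 for centrosome genes, where all genes had 0.0054. The smallest p among pyrimidine genes was that of Cda at 0.26 (SE 0.13), among pluripotency genes that of Gdf3 at 0.23 (SE 0.10) and among replication genes that of Pold4 at 0.13 (SE 0.063). Of the 60 neighbours, 0 passed and Morc1 beside Dppa4, at 0.19 (SE 0.076), was the 1 with an unadjusted p under 0.05 (0.0358 in limma), beside the same shares of all probesets.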

How the data were processed

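The arrays, 3 control and 4 deletion, were Affymetrix Mouse Gene 2.0 ST. Per the submitters' processing notes, RMA was run in Affymetrix Expression Console, and the values deposited are on its log2 scale. RMA sets all arrays to a common distribution, so values can be compared between arrays for a probeset. Between probesets the values do not give relative amounts, and a low average is only a rough sign of little room to fall. The sources used here give neither its version nor the annotation build. Of 41345 probesets, 23521 carry exactly 1 symbol in the platform annotation, for 22180 genes. A gene with several probesets was represented by the one with the highest mean.

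Groups were compared in R 4.3.3 with limma 3.58.1 (lmFit and eBayes, two-sided, both groups in 1 fit, Benjamini-Hochberg adjustment over all 23521 probesets, adjusted p under 0.05). The fit was also run on simulated data with independent normal noise and equal shifts on all deletion arrays. Those data held no single array set apart and no shared clones, so the run does not cover such cases. Values of single arrays were described without a test. Profiles were compared by root mean square difference after centring on each gene's median. Neighbours were the 5 nearest measured genes on each side in the order of GRCm38.p6. The genes named are the 6, the 3 nearest profiles and the neighbours of each, and in each list those with the smallest p; list genes at the ends of a range, Fam111a, Slfn3, Car13 and other examples were picked after their values were seen. Start regions came from the RefSeq table of that build, which held 4 of the 6 genes. The genes and gene lists were chosen with earlier results of these data known. The alternatives left out each array, added a replicate block, array weights, a trended robust variance, a filter on level or all probesets, or shifted or quantile-normalized the arrays again. Nothing says that replicates came from separate cultures, so p-values measure only the spread between these samples. The number of arrays limits the precision.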

Additional observations from a re-analysis of the deposited data

Results flagged for a closer look

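In 3 of the 6 genes the array farthest from the rest of the deletion group lay beyond Dixon's critical value for 4 samples. The gap to the nearest deletion array made up 0.96 of the group's range for Uprt on deletion replicate 4, 0.869 for Zfp827 on deletion replicate 3 and 0.86 for Pclaf on deletion replicate 4. Chance flags about 1 in 20 groups, 1187 of the 22180 genes (5.35%) lay beyond the value in this way, and these 3 were chosen for such gaps, so the flags describe them and support nothing. For Cep126 on deletion replicate 3 the share was 0.824, just under the value. The measure was taken in the deletion group only, so it does not cover the control group of 3 arrays, in which Tbc1d19 and Dppa4 were set apart.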

How the results depend on the processing

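The count of lower genes past the threshold, 2 in the design as planned, was 0 in limma with a replicate block from the titles or from the descriptions and 0 with all probesets tested, where 890, 515 and 1814 probesets had an unadjusted p under 0.05. It ran from 0 to 2 as each array was left out, with 0 without any 1 control array, deletion replicate 1 or deletion replicate 4 and 861 to 1712 probesets at an unadjusted p under 0.05 in those fits. The count of higher genes, 0 in the design as planned, ran from 0 to 1, the 1 being Cep126 without deletion replicate 3. At a distance of 0.5 in place of 1, 342 genes had 1 array apart in place of 34. Of 89 values of the 6 genes under the alternatives, 83 kept their direction and side of the threshold, 5 reversed and 1 passed. Uprt turned to 0.093 without deletion replicate 4 and to 0.093 with the replicate block from the titles. In that fit deletion replicate 4 is alone in its block. Uprt turned to 0.27 with the block from the descriptions. There only control replicate 2 with deletion replicate 1 and control replicate 3 with deletion replicate 2 share a number. Differences in that fit rest on these arrays, so deletion replicate 4 adds nothing to them either. As each array was left out, Uprt ran from -1.97 to 0.093, Tbc1d19 from -0.090 to 1.41 and Dppa4 from -0.37 to 1.15. The last pair turned without control replicate 3. Same-numbered arrays did not deviate together, with correlations of 0.025, 0.061 and -0.098 by title and -0.17 and -0.099 by description, and 0 of the 3 control arrays correlated best with its own number, so the numbers are not taken as a pairing. The filter on level left Cep126 untested. Shifting or quantile-normalizing the arrays again left Uprt, Tbc1d19, Dppa4, Zfp827 and Pclaf apart on the same arrays, by 2.03 or more.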

Other observations

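Genes outside the 6 showed similar values on single arrays and were named after their values were seen, as the largest distances. Fam111a, a gene of a replication-linked protease family, read 9.62 on deletion replicate 1 and 4.52 to 5.52 on the other arrays. Slfn3, a Schlafen family gene, read 7.75 on control replicate 2 and 4.17 to 5.28 elsewhere. Car13, a carbonic anhydrase gene, read 7.57 on control replicate 2 and 9.48 to 10.65 elsewhere. Such genes occurred in both groups, on 3 control and 4 deletion arrays.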
